A study of Mus musculus with 6 samples.

Results

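Polyadenylated RNA from mouse glioma cells grown with 5 µM SHP099 was compared with RNA from the same cells at 0 µM. SHP099 is an allosteric inhibitor that holds the tyrosine phosphatase SHP-2 in its closed, inactive form. The comparison takes 4 of the 6 expression files of the series, chosen by the dose in their labels: the lane 6 and lane 7 files of 5 µM and those of 0 µM. Per the labels the cells of every dose are astrocytes described as glioma cells of a tumour, with the genotype Ink4a/Arf-/- and with PDGFRa and PDGF-A, so the controls carry the same deletion and the same receptor and ligand as the treated cells. The 2 files at 10 µM served only to show whether a response was already complete at 5 µM. Both files of a dose carry the same name except for the lane, and were taken as 1 library run in 2 lanes. Lanes are repeat runs and give no measure of the spread between cultures, so sizes are described and nothing is tested. The length of treatment, the vehicle, the promoter and form of the PDGFRa and PDGF-A constructs, and whether the cells are a clone are not given in the sources used here.

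SHP-2, encoded by Ptpn11, acts downstream of activated receptor tyrosine kinases such as the PDGF receptor and is needed for full activation of RAS. RAS drives the RAF, MEK and ERK kinases, and ERK switches on immediate early genes, ETS and AP-1 transcription factors, cyclin D1 and its own feedback inhibitors, the DUSP, Sprouty and Spred proteins. Cyclin D with CDK4 or CDK6 releases E2F factors, which transcribe genes of DNA replication, and genes of mitosis follow later in the cycle. The Ink4a/Arf locus, Cdkn2a, encodes an inhibitor of this step, INK4A, among its products. Loss of the locus together with PDGF signalling is a pairing used to model glioma in mice.

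Each file holds 1 FPKM value per gene, the fragments scaled to the length of the transcript and to the fragments mapped. From the steps in the low values, 46800000 and 47120000 mapped fragments were recovered for the lanes of 0 µM, 37900000 and 38580000 for 5 µM and 30920000 and 31400000 for 10 µM. At 1 FPKM in a 2 kb transcript the counting error of a lane was then 10.3% to 12.7%. A gene was compared where its lane mean reached 1 FPKM at 0 or 5 µM, which 12439 genes did. Iqck, with lanes at 1.08 and 0.933 FPKM at 0 µM, lay just inside that level and Tnfsf9, at 1.02 and 0.976 FPKM, just outside it. Folds are differences of log2(FPKM + 1) between lane means, which understates changes of genes near 1 FPKM. A gene is said to have risen or fallen where this difference was at least 1.5-fold and all 4 lane-to-lane differences between the doses had the same sign. The cell markers went against the label of the cells in part: Aqp4, Olig1 and Olig2 were at 0 FPKM in all 6 files and Gfap was at most 0.0527, while the astrocyte glutamate transporter Slc1a3 was at 13.97 and 13.7 FPKM at 0 µM and the collagen I chain Col1a1 at 655 in both lanes. The cells are therefore called by their label of glioma cells only. The sum of FPKM, leaving out the small nucleolar RNA gene Snora62, which was listed at 385860 FPKM in lane 6 of 5 µM and at 0 elsewhere, was 643175 and 643707 in the untreated lanes and 567274 and 567051 in those of the lower dose. The share of it from the mitochondrial genome was 4.85% and 4.92% at 0 µM, 7.1% in both lanes at 5 µM and 7.99% and 8.18% at 10 µM. Counts with equal sums are given below for all genes and for several lists, and the part of the mitochondrial share in the results was not tested.

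At 5 µM, 1759 of the 12439 genes rose (14.1%) and 2106 fell (16.9%), so 31.1% changed. Of these, 652 rose and 755 fell at least 2-fold, and 79 rose and 137 fell at least 4-fold. The median absolute log2 difference between 5 and 0 µM was 0.38, against 0.05 to 0.06 between lanes of a library. From 5 to 10 µM it was 0.10 over the same genes. Between its own lanes, the untreated library had 111 genes at least 1.5-fold apart, that of 5 µM had 136 and that of 10 µM had 187. The balance of the directions depends on the scaling: with the sums of all files made equal, Snora62 apart, 2618 genes rose and 1410 fell, so that 65.0% of the changed genes rose in place of 45.5%, and the median log2 fold of all genes was 0.13 in place of −0.03. Fold values below are on the deposited scale.

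**Figure D1:**
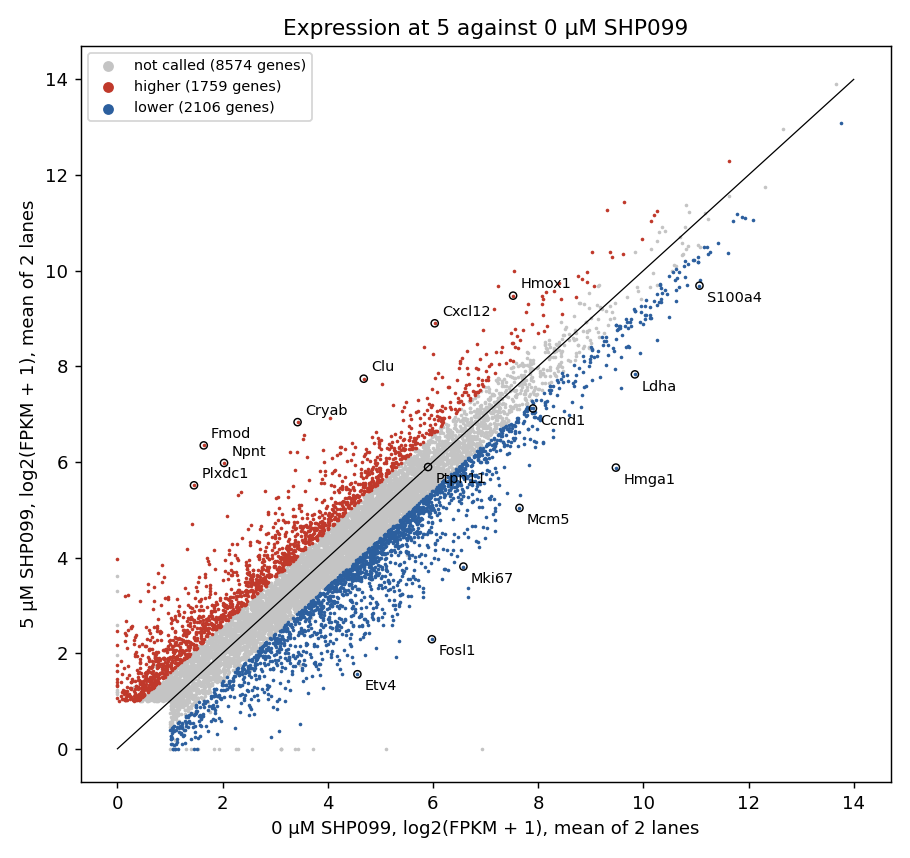
Expression of the 12439 genes compared at 5 µM (vertical) against 0 µM (horizontal), as lane means of log2(FPKM + 1), with genes that rose in red, genes that fell in blue and others in grey; the line marks equal values. The 1759 genes above and 2106 below lie off the line over the whole range of levels, Ptpn11 sits on it, and grey points along the lower edge are genes listed at 0 at 5 µM whose lanes at 0 µM disagree.

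To see which responses were complete at the lower dose, the change from 5 to 10 µM of each changed gene was divided by its change from 0 to 5 µM. A response is called complete where the higher dose added or took back at most 20% of it, further where it added more, and returned where it took back more. This limit is a share of the response on the log2 scale. A larger response may therefore change more between 5 and 10 µM and still count as complete. Rrp9, at 20%, lay just inside this limit and Dtymk, at 20.03%, just outside. Both differences contain the 5 µM library, so an error of that library that enlarges the response moves a gene towards a return, and one that shrinks it moves the gene towards further. Of the genes that rose, 1287 were complete (73.2%), 257 went further (14.6%) and 215 returned (12.2%), and the median change added by the higher dose was 2.38% of the response. Of those that fell, 1316 were complete (62.5%), 674 went further (32%) and 116 returned (5.51%), with a median of 12% added. The directions parted more with the size of the response. Of the 79 genes that rose at least 4-fold, 74 were complete (93.7%). Of the 137 that fell at least 4-fold, 38 were complete (27.7%) and 99 went further. Without the genes of the replication and mitosis lists described below, 32 of the remaining 77 were complete (41.6%). Genes that rose and returned were low, with a median of 1.55 FPKM at 0 µM and 4.02 FPKM at 5 µM, against 7.01 and 15.3 FPKM for genes that rose completely.

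The RNA of the target itself was level across the doses. Ptpn11 was at 60.4 and 57.6 FPKM at 0 µM, 56.8 and 60.03 FPKM at 5 µM and 58.5 and 57.0 FPKM at 10 µM, with lanes that overlap between all doses (log2 fold −0.01). Inhibition by SHP099 acts on the protein, so this value does not check the treatment. Pdgfra was at 77.3 and 72.3 FPKM at 0 µM and 81.0 and 82.4 FPKM at 5 µM (0.13). Pdgfa was at 21 and 21.4 FPKM at 0 µM and 20.97 and 20.5 FPKM at 5 µM (−0.03). The introduced and the native copies are not told apart in these values. Cdkn2a, which the genotype gives as lost, was listed at 527 and 544 FPKM at 0 µM, 826 and 819 FPKM at 5 µM and 803 FPKM in both lanes at 10 µM. It rose by 0.62 on the log2 scale and was complete at 5 µM. A value per gene does not show which exons the fragments came from.

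In the pathway itself, a list of 35 genes that runs from PDGF receptors over SHP-2, RAS and PI3 kinase to ERK, 5 rose (14.3%, near the 14.1% of all genes) and 2 fell (5.71%, where 16.9% of all genes did), and the median log2 fold was 0.10. With equal sums 10 rose. Braf, a RAF kinase named after its value was seen, went further (27.2% added) and the others were complete. Irs1, an adaptor of the insulin receptor, was at 6.997 and 7.06 FPKM at 0 µM, 25.6 and 25.2 FPKM at 5 µM and 30.6 and 29.97 FPKM at 10 µM (1.72). The receptor gene Pdgfrb rose by 0.80, and Pik3r1, which regulates PI3 kinase as a subunit, by 0.73. Rasa1, a RAS GTPase-activating protein, was at 29.7 and 28.1 FPKM at 0 µM, 15.4 and 16.4 FPKM at 5 µM and 16.8 and 16.9 FPKM at 10 µM, and fell by 0.83.

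Some of the genes that ERK induces fell at 5 µM: 44.4% of the feedback inhibitors compared and 45.5% of the transcription factors, beside 16.9% of all genes. Of 20 feedback inhibitors, 18 reached the level; 8 fell, none rose, and the median was −0.51. The phosphatase genes Dusp4 (−1.30, 5.9% added) and Dusp5 (−1.195, 3.87% added) and Errfi1, an inhibitor of the EGF receptor (−1.30), were complete. Errfi1 was at 27.4 and 27.8 FPKM at 0 µM, 11.4 and 9.91 FPKM at 5 µM and 11.1 and 10.6 FPKM at 10 µM, so the lanes of both treated doses overlap. Dusp6, the ERK phosphatase, was at 27.7 and 27.9 FPKM at 0 µM, 15.9 and 19.5 FPKM at 5 µM and 14.5 and 12.1 FPKM at 10 µM. It fell by 0.63 and went further (61.4% added), but without lane 6 of 5 µM its log2 fold was −0.49 and it no longer passed. The Sprouty gene Spry4, at 3.03 and 2.97 FPKM at 0 µM and 1.35 in both lanes at 5 µM, fell by 0.77 and went further (44.9% added). With a pseudocount of 5 FPKM, 3 of the feedback inhibitors fell in place of 8, and Spry4 was at −0.33.

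Of 35 ERK-induced transcription factors, 33 reached the level. Of these, 15 fell (45.5%) and 4 rose (12.1%, near the 14.1% of all genes), with a median of −0.37. Of the 15, 7 were complete (46.7%) and 8 went further. Of the 8 feedback inhibitors that fell 5 were complete (62.5%, the same share as of all genes that fell). Fosl1, which encodes the AP-1 factor FRA-1, had the largest fall of the named genes above 5 FPKM, from 61.9 and 62.3 FPKM to 4.14 and 3.65 FPKM, with 1.95 and 2.17 FPKM at 10 µM (−3.69, 18.3% added). Its lanes did not overlap between the treated doses, and with a pseudocount of 0.1 FPKM it counts as further. Hmga1, a chromatin protein, was at 711 and 714 FPKM at 0 µM, 55.6 and 60.2 FPKM at 5 µM and 45.6 FPKM in both lanes at 10 µM (−3.60, 9.38% added). Etv4, an ETS factor, was at 22.6 and 22.7 FPKM at 0 µM, 1.88 and 2.01 FPKM at 5 µM and 0.659 and 0.689 FPKM at 10 µM, and went further (27.1% added). Its relative Etv5, at 12.04 and 11.9 FPKM at 0 µM, 4.32 and 4.09 FPKM at 5 µM and 2.24 and 2.19 FPKM at 10 µM, did so too (52.9% added). The zinc finger gene Egr1 fell by 0.66, from 151.5 and 150.1 FPKM to 93.6 and 97.0 FPKM (38.2% added), a call lost with equal sums (−0.48). Myc fell from 101.9 and 101.8 FPKM to 45.6 and 45.4 FPKM, with 37.6 and 37.0 FPKM at 10 µM (−1.15, 24.3% added). Chosen after their values were seen, the members that rose were Btg2 (1.49), Nr4a1 (1.12), Atf3 (1.11) and Klf2 (0.90).

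Among 33 of 40 growth factors and receptors that reached the level, 9 rose (27.3%, beside 14.1% of all genes). The 5 that fell were 15.2%, near the 16.9% of all genes, and the median was 0.04. With a pseudocount of 5 FPKM 2 rose. The EGF receptor ligand gene Areg was at 6.13 and 7.03 FPKM at 0 µM and 0.0808 and 0.294 FPKM at 5 µM (−2.68), and Ereg, another such ligand, fell by 1.72. Both were complete. The FGF receptor gene Fgfr3 (1.56) and Igf1, an insulin-like growth factor (1.21), rose, Igf1 with 21.9% added.

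The genes with the largest rises were complete at 5 µM. All of the 15 highest named genes above 5 FPKM were complete, and so were 9 of the 15 lowest. Fmod, fibromodulin, a proteoglycan that binds collagen fibrils, was at 2.12 FPKM in both lanes at 0 µM, 80.2 and 80.4 FPKM at 5 µM and 66.6 and 64.5 FPKM at 10 µM (4.70, 37.9-fold in FPKM). Plxdc1, a membrane protein with a plexin-like domain, was at 1.67 and 1.82 FPKM at 0 µM, 44.2 and 45.0 FPKM at 5 µM and 50.5 and 49.1 FPKM at 10 µM (25.6-fold in FPKM). Npnt, the integrin ligand nephronectin, was at 2.91 and 3.25 FPKM at 0 µM, 61.3 and 62.8 FPKM at 5 µM and 59.5 and 60.5 FPKM at 10 µM (3.95). For these genes the lanes of 0 µM lie far below all treated lanes, and the treated doses differ by a small share of the rise on the log2 scale. Cryab, a small heat shock protein, was at 8.65 and 10.8 FPKM at 0 µM, 115.4 and 110.4 FPKM at 5 µM and 119.2 and 124.0 FPKM at 10 µM (3.41). Clu, the secreted chaperone clusterin, was at 24.3 and 25.1 FPKM at 0 µM, 211.5 and 214.2 FPKM at 5 µM and 230.9 and 228.3 FPKM at 10 µM (3.06). Ptgds, a prostaglandin D synthase, was listed at 0.162 and 0.0387 FPKM at 0 µM and at 8.65 and 7.65 FPKM at 5 µM (3.06). The proteoglycan gene Prelp (3.28), Sebox, a homeobox gene (3.02), Myl9, a myosin light chain (3.01), Cdsn, corneodesmosin (3.01), Sparcl1, a matrix protein (3.001), the complement protease gene C1s1 (2.92), Apod, a lipocalin (2.91), and Phyhd1 (2.88) rose as well.

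Among the lowest genes outside the cell cycle, Il18rap, a subunit of the IL-18 receptor, was at 37.3 and 39.3 FPKM at 0 µM, 2.53 and 3.004 FPKM at 5 µM and 1.71 and 2.37 FPKM at 10 µM (−3.39, 9.31% added). Il1rl1, the IL-33 receptor, was at 39.0 and 41.1 FPKM at 0 µM and 3.63 and 3.88 FPKM at 5 µM (−3.11) and went further by a small margin (22.0% added). Prl2c2, a proliferin, fell from 117.0 and 83.3 FPKM to 7.98 and 8.15 FPKM (−3.46). Akr1c18, a steroid dehydrogenase (−2.98), and Prkg2, a cyclic GMP-dependent kinase (−2.64), fell completely. Prl2c2, Hmga1, Gapdh and the genes of ribosomal proteins, histones and MHC class I have near-identical copies, between which fragments may have been split, so their values are uncertain to that extent.

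**Figure D2:**
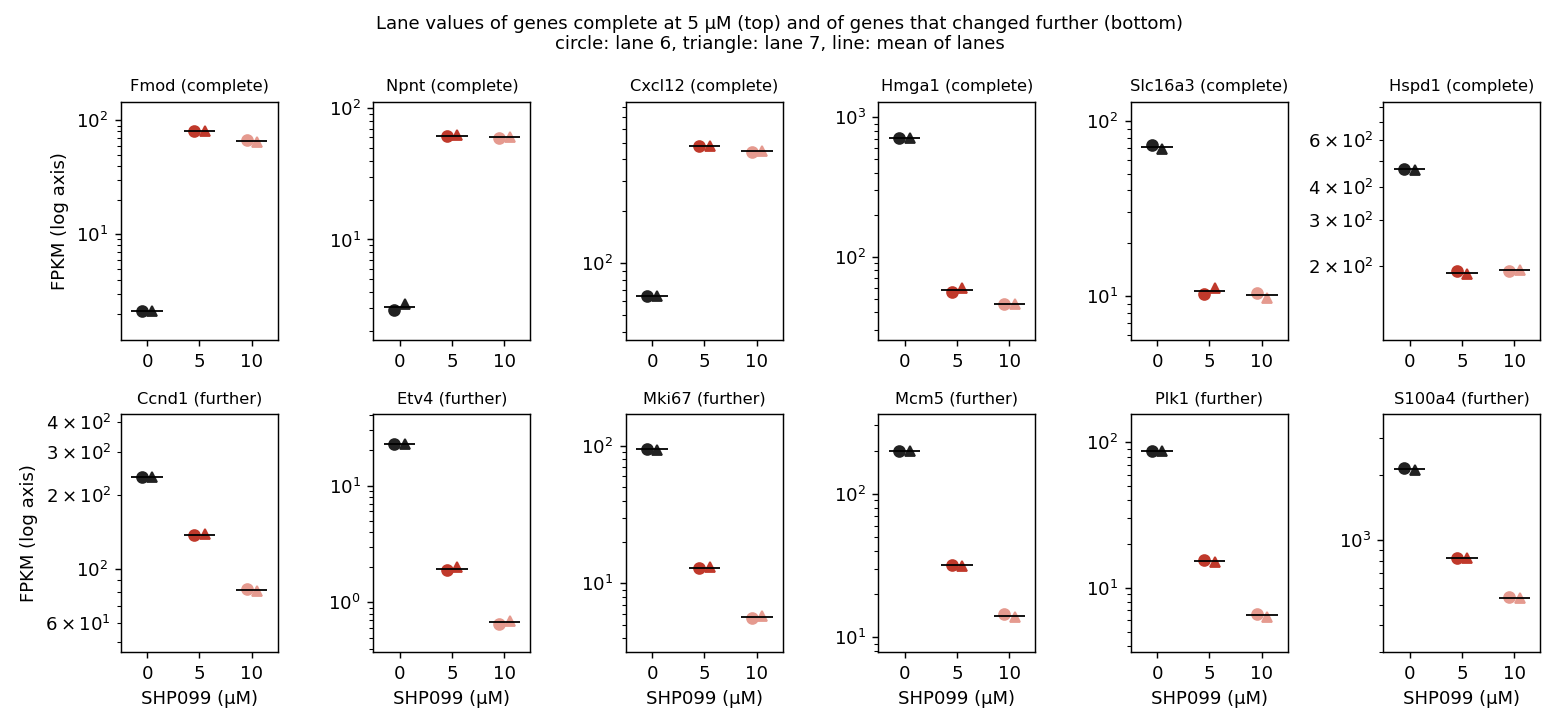
FPKM of 12 genes (log axis, own scale per panel) in both lanes at 0, 5 and 10 µM SHP099, with circles for lane 6, triangles for lane 7 and a line at the lane mean. In the upper row (Fmod to Hspd1) the step from 5 to 10 µM is small beside that from 0 to 5 µM, with the 10 µM lanes of Fmod below those of 5 µM, and in the lower row (Ccnd1 to S100a4) they lie a further step below it.

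Cell-cycle genes fell together at 5 µM, and many of them fell further at 10 µM. Of 26 genes of G1, 25 reached the level. Of these, 13 fell, a larger share than the 16.9% of all genes. The 4 that rose were a share near the 14.1% of all genes, and the median was −0.61. Ccnd1, cyclin D1, was at 237.9 and 238.2 FPKM at 0 µM, 137.1 and 138.5 FPKM at 5 µM and 82.8 and 80.7 FPKM at 10 µM. Each dose step was of similar size, −0.78 and then −0.75, so 95.1% was added. The E2F repressor genes E2f7 (−2.05) and E2f8 (−2.05) went further, with 25.2% and 25.9% added, and E2f2 (−1.86) and Ccne2, cyclin E2 (−1.75), were complete. The classes of the E2F genes named here turn on the pseudocount. With 0.1 FPKM E2f2 counts as further too, and with 5 FPKM E2f7 and E2f8 count as complete. Both lanes of E2f2 at 10 µM lay below both at 5 µM. The members that rose, chosen after their values were seen, were Cdkn2a, Ccnd2 (0.59) and the CDK inhibitors Cdkn2b (1.197) and Cdkn1a (0.75).

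All 50 genes of DNA replication fell, with a median of −1.85 and a range from −2.72 to −0.64, where 16.9% of all genes fell. Their summed FPKM was 3426 and 3427 in the untreated lanes, 973.6 and 980.0 in those of 5 µM and 757.2 and 743.9 in those of 10 µM. Of the 50, 21 were complete and 29 went further. This balance turns on the pseudocount: with 5 FPKM 30 were complete, Cdc6 among them (15.8% added). Mcm5, a subunit of the replicative helicase, was at 198.3 and 199.9 FPKM at 0 µM, 32.1 and 31.6 FPKM at 5 µM and 14.5 and 13.9 FPKM at 10 µM (−2.61, 42.7% added). Cdc6, which loads that helicase, was at 21.03 and 21.8 FPKM at 0 µM, 2.41 and 2.49 FPKM at 5 µM and 1.08 and 1.12 FPKM at 10 µM (−2.70, 26.6% added). Gins1, of the helicase complex, was complete, at 18.4 FPKM in both lanes of 0 µM and 2.08 and 1.82 FPKM at 5 µM, though its lanes at 10 µM were uneven, at 3.19 and 1.37 FPKM. Ccna2, cyclin A2, fell by 2.61 and went further (32.5% added).

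All 55 genes of mitosis fell too, with a median of −2.15 and a range from −2.80 to −1.5. Here 52 went further and 3 were complete, Cenpf, Anln and Smc4, which are named after their values were seen. With a pseudocount of 5 FPKM 10 were complete. From 5 to 10 µM the median change of the 55 genes was −0.76, against −0.41 for the replication genes and −0.01 for all genes. Summed over the list, FPKM was 3468 and 3438 in the untreated lanes, 744.9 and 719.4 in those of 5 µM and 421.5 and 419.2 in those of 10 µM. Mki67, which encodes the proliferation marker Ki-67, was at 95.1 and 94.0 FPKM at 0 µM, 13.0 and 13.1 FPKM at 5 µM and 5.55 and 5.78 FPKM at 10 µM (−2.77, 38.8% added). Plk1, a mitotic kinase, was at 86.7 and 87.0 FPKM at 0 µM, 15.5 and 15.2 FPKM at 5 µM and 6.64 and 6.34 FPKM at 10 µM (−2.43, 46.4% added). Cenpa, the centromeric histone H3 variant, was at 117.3 and 115.7 FPKM at 0 µM, 18.8 and 16.3 FPKM at 5 µM and 8.55 and 7.23 FPKM at 10 µM (−2.67, 39.8% added). In each of these genes all lanes of a dose lie below all lanes of the dose before it. Of the 137 genes that fell at least 4-fold, 77 were outside the replication and mitosis lists. The 10 genes of at least 4-fold with the largest further change were all in these lists. Among them were Pclaf (50.5% added), a partner of PCNA, and Cdc20 (49.0%), an activator of the anaphase-promoting complex. Aurkb (44.2%), a mitotic kinase, and the kinesin Kif4 (52.7%) were others. In bulk RNA, fewer cells in a phase of the cycle and less of these RNAs per cell cannot be told apart.

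Promoters of both lists were searched for letters known from cell-cycle control: TTTGAA, the core of the cell-cycle homology region bound by the DREAM complex, and TTTGGCGC, TTTCGCGC and TTTCCCGC, which E2F factors bind. The windows are 300 bases of RefSeq for GRCm38.p6, from 250 before to 50 after each start, read on both strands. Both kinds of letters begin with TTT but are otherwise distinct. TTTGAA was in a window of 33 of the 47 mitosis genes with a promoter (70.2%), 6 of 40 replication genes (15%), 14% of all genes compared and 20.2% of all 27025 genes with a promoter. The E2F letters were in 17 of 40 replication genes (42.5%), 4 of 47 mitosis genes (8.51%), 4.32% of genes compared and 2.12% of all. The promoters below are examples, from the genes with the largest folds of each list among those whose window holds the letters, in capitals. Other members of both lists hold them too, and a match is no evidence of binding. Mki67 is at chr7:135716330-135716629 on the minus strand, Cenpa at chr5:30666636-30666935 on the plus strand and Cdc6 at chr11:98907901-98908200 on the plus strand, where the E2F letters stand on the opposite strand and read GCGGGAAA.
Mki67: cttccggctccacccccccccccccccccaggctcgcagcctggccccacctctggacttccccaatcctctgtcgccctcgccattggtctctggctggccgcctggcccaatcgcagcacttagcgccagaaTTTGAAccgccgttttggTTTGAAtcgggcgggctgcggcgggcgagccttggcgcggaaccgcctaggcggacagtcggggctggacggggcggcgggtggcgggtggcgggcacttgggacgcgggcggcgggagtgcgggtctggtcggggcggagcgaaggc
Cenpa: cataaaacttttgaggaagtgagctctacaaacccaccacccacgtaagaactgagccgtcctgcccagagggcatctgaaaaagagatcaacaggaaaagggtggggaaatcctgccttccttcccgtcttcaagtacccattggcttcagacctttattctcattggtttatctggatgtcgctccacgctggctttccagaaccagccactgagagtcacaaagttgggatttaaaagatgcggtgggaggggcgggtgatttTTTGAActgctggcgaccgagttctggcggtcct
Cdc6: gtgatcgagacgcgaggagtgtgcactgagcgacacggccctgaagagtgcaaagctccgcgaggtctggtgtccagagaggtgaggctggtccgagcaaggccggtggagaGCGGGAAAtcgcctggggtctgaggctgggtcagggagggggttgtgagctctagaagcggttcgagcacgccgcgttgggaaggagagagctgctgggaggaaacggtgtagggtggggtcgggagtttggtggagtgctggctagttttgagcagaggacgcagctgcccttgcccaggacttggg

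Genes for building ribosomes fell at 5 µM. Of 35 genes of ribosome assembly and RNA polymerase I, 32 fell (91.4%, beside 16.9% of all genes), with a median of −1.01. Of the 32, 25 were complete (78.1%), where 62.5% of all genes that fell were. The exception that rose, named after its value was seen, was Ubtf, a polymerase I factor (0.77). Nop56, of the box C/D ribonucleoprotein, was at 446.7 and 448.4 FPKM at 0 µM, 141.1 and 141.2 FPKM at 5 µM and 119.2 and 119.7 FPKM at 10 µM (−1.66, 14.4% added). The nucleolar genes Nolc1 (−1.45) and Ddx21 (−1.42) were complete, and Dkc1, a pseudouridine synthase (−1.58), went further (29.7% added). Of 43 genes for cytosolic ribosomal proteins, none rose and 38 fell (88.4%, median −0.77), 19 of them complete (50%) and 19 further. Rpl3 led them, from 1126 and 1120 FPKM at 0 µM to 516 and 518 FPKM at 5 µM and 423 and 415 FPKM at 10 µM (−1.12). With equal sums 23 fell. Their share of all FPKM was 9.32% and 9.28% at 0 µM and 6.15% and 6.17% at 5 µM.

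Of 25 genes of serine, one-carbon and nucleotide synthesis, 20 fell (80.0%, beside 16.9% of all genes) and none rose (median −0.99). Of the 20, 14 were complete (70.0%, beside 62.5% of all genes that fell). Prps1, which makes the ribose phosphate donor of nucleotides, was at 57.4 and 56.0 FPKM at 0 µM, 13.0 and 12.8 FPKM at 5 µM and 11.1 and 11.3 FPKM at 10 µM (−2.05, 9.04% added). The pyrimidine genes Cad (−1.55) and Umps (−1.27) and the purine gene Pfas (−1.38) were complete. Of the 5 not called, named after their values were seen, 4 belong to serine and mitochondrial one-carbon metabolism: Phgdh (−0.04), Mthfd2 (0.03), Psph (0.10) and Aldh1l2 (0.47). The other was Impdh1 (−0.55).

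Glycolysis genes and hypoxia targets fell, and most of their change was made at 5 µM. Of 31 genes, 30 reached the level. Of these, 17 fell (56.7%, beside 16.9% of all genes) and 1 rose (3.33%), with a median of −0.95. Complete were 15 of the 17 (88.2%, beside 62.5% of all genes that fell). Slc16a3, the lactate exporter MCT4, was at 72.8 and 69.4 FPKM at 0 µM, 10.2 and 11.1 FPKM at 5 µM and 10.4 and 9.73 FPKM at 10 µM (−2.63, 2.89% added). Ldha, lactate dehydrogenase A, was at 919.6 and 910.4 FPKM at 0 µM, 226.0 and 227.1 FPKM at 5 µM and 209 and 199.3 FPKM at 10 µM (−2.01, 7.46% added). Ankrd37, a hypoxia target (−2.45), and the enolase Eno1 (−1.71) were complete as well. For Slc16a3 and Ankrd37 the lanes of the treated doses overlap. Gapdh, Bnip3 and Ndrg1 are named after their values were seen: Gapdh went further (22.2% added), the hypoxia target Bnip3 returned (a ratio of −22.1%) and Ndrg1 rose (1.04).

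Of 31 nuclear genes of the respiratory chain and ATP synthase, none rose and 6 fell (19.4%, near the 16.9% of all genes; median −0.31). With equal sums 1 fell. Cycs, cytochrome c, fell by 1.03 and was complete, and Uqcrc1 (−0.73), Uqcrc2 (−0.66) and Atp5a1 (−0.64) passed on the deposited scale but not with equal sums. Of 13 genes of the mitochondrial genome 6 rose (46.2%, beside 14.1% of all genes) and 1 fell (7.69%), with a median of 0.35. mt-Nd5, a complex I subunit, was at 1180 and 1170 FPKM at 0 µM, 2282 and 2277 FPKM at 5 µM and 2543 and 2513 FPKM at 10 µM (0.95). mt-Nd6 (0.90) and mt-Nd3 (1.01) went further. mt-Co2 was uneven between lanes, at 29.0 and 49.5 FPKM at 0 µM, 25.04 and 10.7 FPKM at 5 µM and 46.2 and 19.1 FPKM at 10 µM, and its fall (−1.16) was not called without lane 7 of 5 µM (−0.58). Of 35 cholesterol and fatty acid genes, 33 reached the level. Of these, 1 rose (3.03%) and 3 fell (9.09%), below the 14.1% and 16.9% of all genes. The median of the list, −0.04, turned to 0.13 with equal sums. Abca1, the cholesterol exporter, was at 6.94 and 6.73 FPKM at 0 µM, 18.1 and 17.1 FPKM at 5 µM and 30.4 and 29.8 FPKM at 10 µM, a rise that went further (59.8% added). The sterol transporter gene Stard4 (−0.84) was complete, and Idi1, an isoprenoid isomerase, fell by 0.77 with a return at 10 µM (ratio −53.6%).

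Lysosomal genes rose, and 10 µM added to the rise by a median of 14.1%. Of 54 genes, 50 reached the level; 34 rose and none fell (median 0.90), where 14.1% of all genes rose. Of the 34, 29 were complete (85.3%, beside 73.2% of all genes that rose) and 5 went further. Their summed FPKM was 5081 and 5073 at 0 µM and 10000 and 9954 at 5 µM. Neu1, a sialidase, was at 13.5 and 13.4 FPKM at 0 µM, 55.1 and 54.9 FPKM at 5 µM and 67.2 and 67.4 FPKM at 10 µM (1.96, 14.7% added). Hexa, a subunit of beta-hexosaminidase, was at 36.4 and 37.1 FPKM at 0 µM, 145.6 and 144.6 FPKM at 5 µM and 180.7 and 181.0 FPKM at 10 µM (1.95, 16.2% added). Both count as complete, yet their lanes at 10 µM all lie above those at 5 µM. Naglu, which degrades heparan sulphate (1.49), and Arsa, arylsulphatase A (1.43), were complete. Of 24 autophagy genes 7 rose (29.2%, beside 14.1% of all genes) and none fell (median 0.32). Map1lc3a, which encodes a protein of the autophagosome membrane (1.31), Gabarap, its relative (1.00), and Atg3, which couples them to lipid (0.71), were complete, and the receptor gene Optn (0.82) went further.

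The E-box GTCACGTG, which holds the core of the sequence bound by TFEB and related factors at lysosomal genes, was in a window of 11 of 43 lysosomal genes with a promoter (25.6%), 1 of 37 genes of collagens and matrix proteins (2.7%), 5.08% of all genes compared and 2.55% of all genes. Naglu, at chr11:101069844-101070143 on the plus strand, is the named gene whose window is shown, with these letters in capitals.
Naglu: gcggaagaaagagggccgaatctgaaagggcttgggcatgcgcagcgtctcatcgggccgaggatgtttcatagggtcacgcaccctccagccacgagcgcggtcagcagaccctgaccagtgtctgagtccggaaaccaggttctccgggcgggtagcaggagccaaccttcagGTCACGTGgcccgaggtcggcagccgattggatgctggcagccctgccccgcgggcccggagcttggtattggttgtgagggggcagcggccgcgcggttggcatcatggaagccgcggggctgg

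Genes of the extracellular matrix rose, most of them completely. Of 57 collagens and matrix proteins, 51 reached the level. Of these, 33 rose (64.7%, beside 14.1% of all genes) and 1 fell (1.96%), with a median of 0.89. Of the 33, 27 were complete (81.8%, beside 73.2% of all genes that rose), 1 went further and 5 returned. As well as Fmod, Npnt and Prelp, Ccdc80, a secreted matrix protein, was at 15.3 and 15.7 FPKM at 0 µM, 118.0 and 121.7 FPKM at 5 µM and 143.0 and 147.9 FPKM at 10 µM (2.87). The members that returned, named after their values were seen, were the proteoglycan Bgn (0.73), the matrix protein Mgp (0.89), the collagen VI chains Col6a1 (0.82) and Col6a2 (1.01), and Loxl1, a lysyl oxidase (0.64). The member that fell was Spp1, osteopontin, from 2170 and 2173 FPKM to 895 and 881 FPKM (−1.29).

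Of 33 matrix proteases and inhibitors, 26 reached the level. Of these, 14 rose (53.8%, beside 14.1% of all genes) and 4 fell (15.4%, near the 16.9% of all genes). The median was 0.84, and 12 of the 14 (85.7%, beside 73.2% of all genes that rose) and all 4 were complete. Mmp14, a membrane-bound metalloprotease, was at 142.1 and 143.6 FPKM at 0 µM, 587.3 and 589.5 FPKM at 5 µM and 623.3 and 623.2 FPKM at 10 µM (2.04, 4.07% added). Adamts2, a procollagen protease (2.14), and Adamts4, an aggrecanase (1.65), rose, and Plau, the urokinase plasminogen activator, fell by 1.482. Of 27 smooth muscle contractile and SRF target genes 23 reached the level. Of these, 7 rose (30.4%), all complete, and 3 fell (13.0%), with a median of 0.15. Acta2, smooth muscle actin, was at 62.6 and 63.6 FPKM at 0 µM, 305.3 and 304.4 FPKM at 5 µM and 254.2 and 252.6 FPKM at 10 µM (2.26). Tagln, transgelin, rose by 2.08, while its relative Tagln2 fell from 227.1 and 227.2 FPKM to 59.3 and 60.7 FPKM (−1.90).

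Of 42 interferon-response and MHC class I genes, 35 reached the level. In all, 15 rose (42.9%, beside 14.1% of all genes) and 1 fell (median 0.53). Complete were 12 of the 15 (80.0%, beside 73.2% of all genes that rose). Bst2, a membrane protein that tethers viruses, was at 43.2 and 42.3 FPKM at 0 µM, 140.4 and 141.6 FPKM at 5 µM and 147.8 and 142.7 FPKM at 10 µM (1.70). Xaf1 (2.11) and the GTPase genes Irgm2 (2.01) and Igtp (1.49) rose and were complete, from below 5 FPKM. With a pseudocount of 5 FPKM, 9 rose in place of 15. Of 38 chemokines and NF-kappaB targets 24 reached the level. Of these, 2 rose (8.33%, beside 14.1% of all genes) and 5 fell (20.8%, near the 16.9% of all genes). Their median of −0.04 was 0.14 with equal sums. Cxcl12, the ligand of CXCR4, was at 64.5 and 64.4 FPKM at 0 µM, 477.4 and 475.3 FPKM at 5 µM and 443.3 and 443.7 FPKM at 10 µM (2.87, 7.39-fold in FPKM).

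Stress-response genes were mixed in direction and mostly complete, as were 73.2% of all genes that rose and 62.5% of those that fell. Of 30 ATF4 and unfolded-protein genes, 8 rose (26.7%, beside 14.1% of all genes), all complete, and 1 fell (median 0.11). Nupr1, a stress-induced nuclear protein (1.67), Trib3, a pseudokinase (1.34), the factor Atf5 (1.27) and Chac1, a glutathione-degrading enzyme (1.23), led them. Of 19 of 20 heat shock genes that reached the level, 9 fell (47.4%, beside 16.9% of all genes), 7 of them completely. Cryab alone rose, and the median was −0.53. With equal sums 5 fell. Hspd1, the mitochondrial chaperonin, was at 467.4 and 461.6 FPKM at 0 µM, 191.2 and 186.0 FPKM at 5 µM and 191.4 and 193.9 FPKM at 10 µM (−1.30, a ratio of −2.36%). Hspa4l (−1.11) and the co-chaperone Stip1 (−0.91) were complete. Of 32 NRF2, redox and iron genes 30 reached the level; 9 fell, 7 of them completely, and 2 rose (median −0.38). Hmox1, heme oxygenase 1, rose from 183.1 and 182.9 FPKM to 712.8 and 710.2 FPKM, with 804.7 and 809.5 FPKM at 10 µM (1.95), whereas Nqo1, a quinone reductase (−1.86), Gsr, glutathione reductase (−1.41), and Tfrc, the transferrin receptor (−1.41), fell. All of these were complete.

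Of 37 p53 targets and apoptosis genes 32 reached the level. Of these, 11 rose (34.4%, beside 14.1% of all genes) and 4 fell (12.5%, beside 16.9% of all genes), with a median of 0.07. Trp53inp1 (1.8), Bmf, a BH3-only factor (1.68), and Sesn2, a stress-induced sestrin (1.19), rose. Of 29 genes of the FOXO and insulin pathway 26 reached the level. Of these, 10 rose (38.5%) and 2 fell (7.69%), with a median of 0.30. Pik3ip1, an inhibitor of PI3 kinase (2.06), and Mxd4, a MYC antagonist (1.69), were complete, and the ubiquitin ligase gene Fbxo32 (1.61) went further (23.7% added).

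Of 50 TGF-beta, BMP and WNT genes, 34 reached the level. In all, 12 rose (35.3%, beside 14.1% of all genes) and 4 fell (11.8%, beside 16.9% of all genes), with a median of 0.36. Of the 12, 6 were complete, 4 went further and 2 returned. Id3, a BMP-induced inhibitor of helix-loop-helix factors, was at 9.12 and 10.1 FPKM at 0 µM, 72.6 and 73.7 FPKM at 5 µM and 85.6 and 83.3 FPKM at 10 µM (2.81, 7.31% added). Grem1, a BMP antagonist, was at 64.3 and 65.1 FPKM at 0 µM, 214.5 and 215.9 FPKM at 5 µM and 315.0 and 312.7 FPKM at 10 µM (1.72, 31.6% added). Notum, a WNT deacylase, fell by 1.56. Of 34 SOX, EMT and progenitor genes 22 reached the level. Of these, 4 rose (18.2%, near the share of all genes) and 7 fell (31.8%), with a median of −0.14 that changed sign with equal sums. Nes, the progenitor filament nestin, was at 18.7 and 19.3 FPKM at 0 µM, 5.57 and 5.42 FPKM at 5 µM and 4.68 and 5.26 FPKM at 10 µM (−1.62). The chromatin protein gene Hmga2 fell by 2.63, and Sox4 (1.53) and the cadherin Cdh11 (1.43) rose, all complete.

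**Figure D3:**
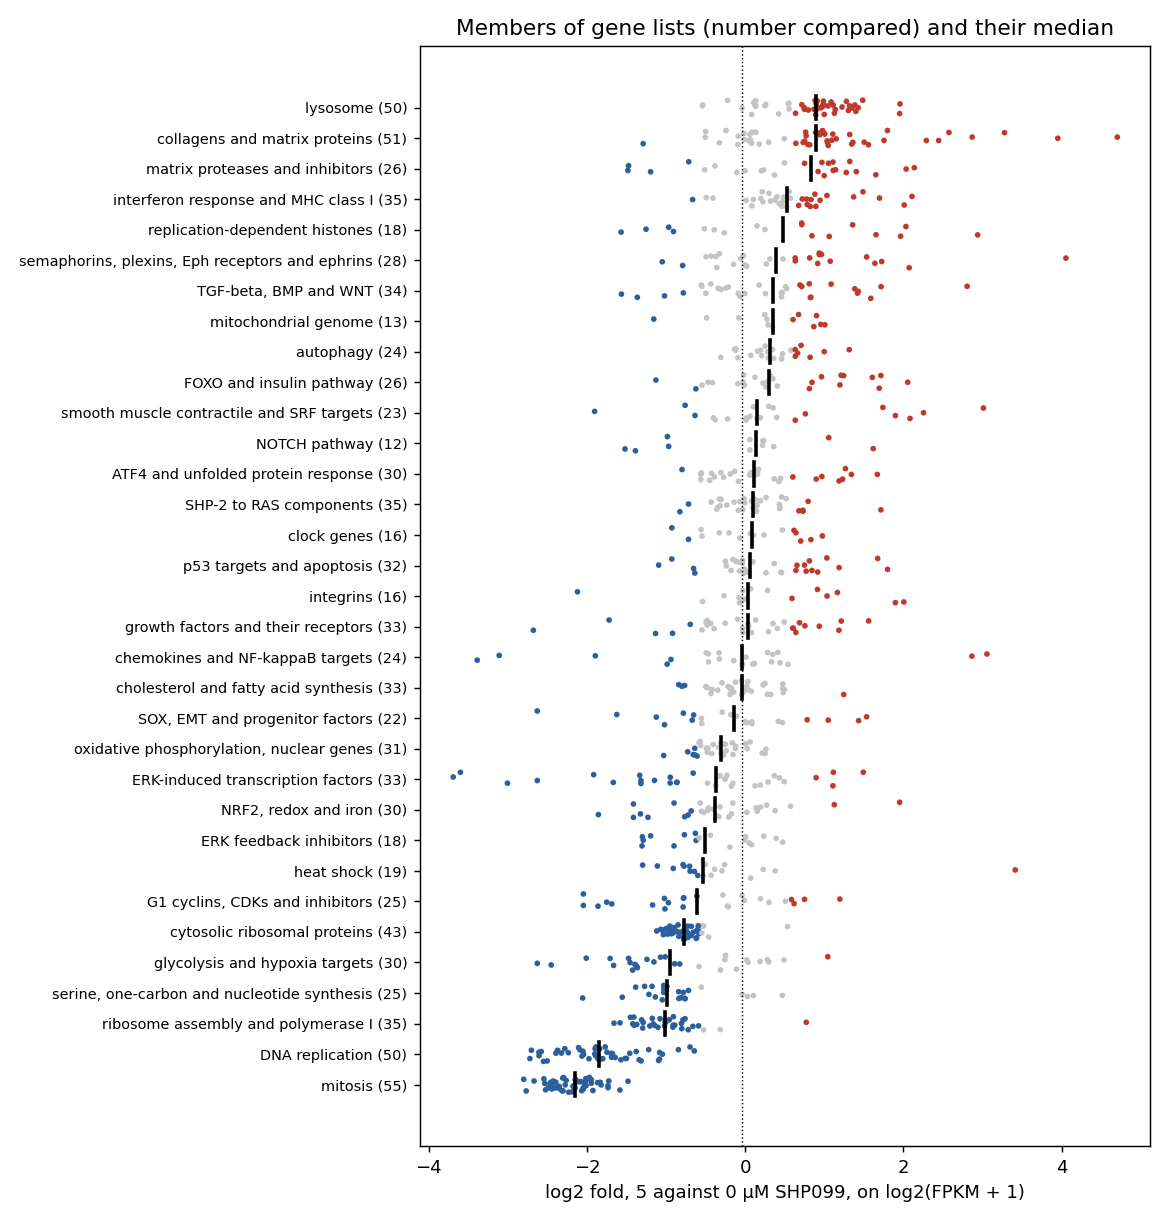
Log2 fold at 5 against 0 µM of the members of each gene list with at least 10 genes compared (points; red rose, blue fell, grey neither), with the list median as a black bar and the median of all genes, −0.03, as a dotted line. Mitosis (−2.15) and DNA replication (−1.85) have the lowest medians and lysosome (0.90) and collagens and matrix proteins (0.89) the highest.

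Markers of cell types were mixed in direction or below the level. Of 12 astrocyte markers 6 reached the level. Clu and Fgfr3 rose and Glul, glutamine synthetase, fell from 23.2 and 26.1 FPKM to 14.4 and 14.6 FPKM (−0.72), a call lost with equal sums. Gja1 (−0.12), Slc1a3 (0.01) and Sox9 (−0.18) were not called. Of 9 markers of fibroblasts and meninges 7 reached the level; 4 rose and 2 fell. Col1a2, a collagen I chain, was at 1231 and 1232 FPKM at 0 µM and 2416 and 2440 FPKM at 5 µM (0.98), while S100a4, a calcium-binding protein, fell from 2170 and 2121 FPKM to 822 and 824 FPKM, with 540 and 538 FPKM at 10 µM (−1.38, 44.1% added). Col1a1 (1.04), Dcn, a proteoglycan (1.04), and Pdgfrb rose, and Twist2, named after its value was seen, fell by 0.65. Both collagen chains and Dcn are also in the list of collagens and matrix proteins, and the part of such cells in its rise was not tested. Of 10 microglia and macrophage markers 3 reached the level, summing over all 10 to 65.4 and 66.8 FPKM at 0 µM and 121.1 and 124.9 FPKM at 5 µM, nearly all of it Tmem119 (0.89), while Adgre1 was at 0 in all 6 files. Lyz2, a lysozyme of the same list, rose from 0.0589 and 0.117 FPKM to 2.42 and 2.01 FPKM (1.56) and was complete, a call lost with a pseudocount of 5 FPKM. Of 6 neuron markers 2 reached the level, and Stmn2 fell from 243.2 and 239.0 FPKM to 123.6 and 120.6 FPKM (−0.98), while Tubb3, at 14.9 and 14.3 FPKM at 0 µM and 17.6 and 19.7 FPKM at 5 µM (0.33), was not called and Snap25 was at 0 in all files. None of the 8 endothelium and pericyte markers and 1 of the 8 oligodendrocyte markers, Cnp (0.18), reached the level.

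**Figure D4:**
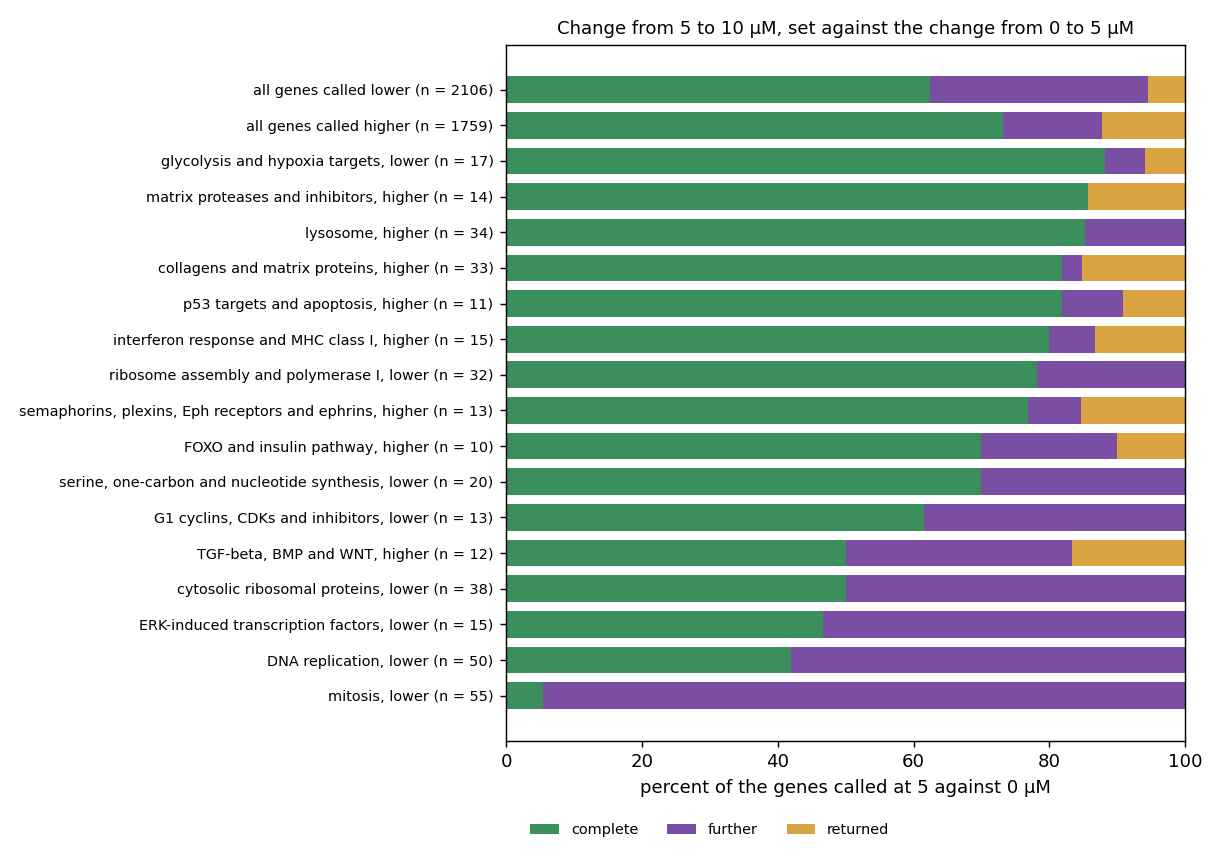
Share of the genes that rose or fell at 5 µM, per list and direction with at least 10 such genes (n beside the name), whose response was complete, further or returned at 10 µM. Genes that fell for glycolysis (88.2% complete) and rose for the lysosome (85.3%) or collagens and matrix proteins (81.8%) were mostly complete, against 5.45% of the mitosis genes. Of all genes, 73.2% of those that rose and 62.5% of those that fell were complete.

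Among genes that rose at least 4-fold and above 5 FPKM, the largest steps back from 5 to 10 µM were small shares of the rise on the log2 scale. In FPKM the same steps take back larger shares of the rise, as the values of Prelp and Islr show. The ratios given here are on the log2 scale. Prelp, from 1.75 and 1.61 FPKM to 25.04 and 24.95 FPKM, was at 16.02 and 16.6 FPKM at 10 µM, a ratio of −17.9%. Islr, a secreted leucine-rich repeat protein, was at 0.564 and 0.674 FPKM at 0 µM, 7.16 and 7.85 FPKM at 5 µM and 4.99 and 4.70 FPKM at 10 µM, a ratio of −22.5%, and alone of the 10 genes with the largest steps back counts as returned. These classes turn on the pseudocount: with 0.1 FPKM Islr was complete (−18.2%), and with 5 FPKM Prelp (−22.8%) and Apod (−20.5%) returned too. The others named by the same rule, Apod, the proteoglycans Aspn (2.86) and Podn (2.72), Rasgrp2, a RAS-family exchange factor (2.62), Cbr2 (2.79), Ighm (2.49), Fmod and Acta2, had ratios between −15% and −6.13%. In all of these the lanes at 10 µM remained above those at 0 µM.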

How the data were processed

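Polyadenylated RNA was sequenced from 1 library per dose (0, 5 and 10 µM SHP099) in lanes 6 and 7. The deposited values are FPKM computed by the authors, per the file headers. Per the submitters' processing notes reads were aligned with Bowtie 0.12.2 to mm8; the tool that made the FPKM is not given in the sources used here. Of 53460 gene IDs, 53270 are in GENCODE M21, so the gene models are later than mm8 and gene positions are given only for promoters, from RefSeq for GRCm38.p6. Entries of 110 of 53346 symbols were summed and Snora62 was left out. Depth was fitted so that low FPKM became whole fragments: of 1304 to 1404 single-transcript genes in each file, 97.7% to 98.4% gave a whole number within 0.1, against 20% by chance. Error from counting alone is meant where counting error is given.

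Lane means of log2(FPKM + 1) were compared for genes with a lane mean of 1 FPKM or more in either dose, with no test. The procedure was tested on simulated data. The members, the 39 gene lists and the limits were chosen with earlier results of these data known. Named genes are 10 chosen for the pathway (Myc, Ccnd1, Egr1, Etv5, Spry4, Dusp6, Cdkn2a, Pdgfa, Pdgfra, Ptpn11), the 15 highest and 15 lowest changed genes with a gene name and with 5 FPKM or more at the dose where they were higher, up to 4 changed genes per list with the largest folds, and, among changes of at least 4-fold, the 10 largest complete, further and backward steps. Any other gene named was picked with its value in view, as the text states. Alternatives were pseudocounts of 0.1 and 5 FPKM, no filter or 5 FPKM, scaling by a trimmed mean, to equal sums or to a median difference of 0, lanes left out or alone, the highest entry of a symbol, protein-coding genes, a 2-fold rule, 1.5-fold alone, other limits for a complete response, and list means. Python 3.11.15, numpy 2.4.6, pandas 2.3.3 and matplotlib 3.10.9 were used.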

Additional observations from a re-analysis of the deposited data

Results flagged for a closer look

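Snora62, a small nucleolar RNA gene left out of every comparison, was listed at 385860 FPKM in lane 6 of 5 µM and at 0 in the other 5 files, including the other lane of the same library. A signal of that size in values outside the comparison singled it out. With 1 library per dose, no group held enough samples for an outlier to be looked for.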

How the results depend on the processing

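No named gene that was called changed direction under any alternative run, but counts moved by more than 1.5 times and the balance of directions turned in places. With equal sums more genes rose than fell (2618 and 1410), as in the cholesterol list (5 and 3) and the SOX, EMT and progenitor list (6 and 5). Growth factors and receptors turned to 2 rises and 5 falls with a pseudocount of 5 FPKM, and clock genes to 1 and 2 there and to 3 and 4 in lane 6 alone. Genes that rose were 927 with a pseudocount of 5 FPKM and 652 at 2-fold, and genes that fell were 755 at 2-fold. Complete rises were 754 with a pseudocount of 5 FPKM, 536 at 2-fold and 759 with a limit of 10%. Complete falls were 833 with equal sums, 440 at 2-fold, 709 with a limit of 10% and 1981 where the 10 µM mean had only to lie within 1.5-fold of the 5 µM mean. The causes were not tested, apart from stricter rules passing fewer genes. Leaving out each lane file of 0 or 5 µM in turn gave 1779 to 1838 rises and 2110 to 2161 falls, and leaving out each of the 6 files gave 1203 to 1317 complete rises and 1273 to 1349 complete falls. The number of lists with a median of at least 1.5-fold was 12 and ranged from 8 to 14. Trimmed mean scaling gave 1653 rises and 2238 falls, and a median difference of 0 gave 1926 and 1948. With equal sums Atp5a1, Bhlhe40, Dusp6, Egr1, Glul, Uqcrc1 and Uqcrc2 were no longer called, and with a pseudocount of 5 FPKM Dbp, Dusp5, Dusp6, Igf1, Igtp, Lyz2 and Spry4 were not. Between 0 and 11 named genes changed between complete, further and returned under an alternative. No paired analysis was possible because the files of a dose are lanes of 1 library and no test was made. Depth limits genes near 1 FPKM most, and no value here measures the spread between cultures.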

Other observations

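Guidance and adhesion genes were among those that rose. Of 42 semaphorins, plexins, Eph receptors and ephrins, 28 reached the level. In all, 13 rose (46.4%, beside 14.1% of all genes) and 2 fell (7.14%, beside 16.9% of all genes). The median log2 fold was 0.40, and 10 of the 13 were complete (76.9%, near the 73.2% of all genes that rose). Sema3c, a secreted guidance cue, was at 13.8 and 14.8 FPKM at 0 µM, 63.9 and 62.9 FPKM at 5 µM and 78.4 and 79.6 FPKM at 10 µM (2.07). Sema3f (1.73) and Efnb1, an ephrin (1.64), rose too. Of 20 integrin genes 16 reached the level. Of these, 6 rose (37.5%) and 1 fell (6.25%), with a median of 0.04. The collagen-binding integrin genes Itga1, from 3.83 and 3.80 FPKM to 18.1 and 18.5 FPKM (2.01), and Itga11 (1.90) were complete, and Itgb7 fell from 10.6 FPKM in both lanes to 1.75 and 1.59 FPKM (−2.12). Of 22 NOTCH pathway genes 12 reached the level. Of these, 2 rose (16.7%, near the 14.1% of all genes) and 4 fell (33.3%, beside 16.9% of all genes). The median was 0.14 and the mean −0.09. The receptor Notch3 (1.62) and Hes6 (1.06) rose, and the target Hey1 (−1.52) and the glycosyltransferase gene Lfng (−1.39) fell.

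Of 25 replication-dependent histone genes, whose RNAs mostly lack poly(A) tails, 18 reached the level. Of these, 9 rose, a larger share than the 14.1% of all genes, although all 50 replication genes fell. The 4 that fell were a share near the 16.9% of all genes, and the median was 0.48. With a pseudocount of 5 FPKM 4 rose and 1 fell, with a median of 0.17. Hist1h2bc was at 10.2 and 10.96 FPKM at 0 µM, 89.8 and 85.9 FPKM at 5 µM (2.94), a complete rise, and Hist1h1c, a linker histone, rose by 1.97. The members that fell, chosen after their values were seen, were Hist1h3c (−1.57), Hist1h2bj (−1.25), Hist1h2bk (−0.97) and Hist1h2ag (−0.91), all below 5 FPKM. Whether the histone RNA counted had tails is not shown by FPKM. Of 18 clock genes 16 reached the level. Of these, 5 rose (31.2%, beside 14.1% of all genes) and 2 fell (12.5%, beside 16.9% of all genes), with a median of 0.09. Tef (0.98) and Dbp (0.83), which are output factors of the clock, rose, while Arntl, a core activator (−0.93), and Bhlhe40 (−0.72) fell, and all of these were complete at 5 µM.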
